A study of Homo sapiens with 16 samples.

Results

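The genes described here are 6 secreted products of Paneth and other secretory cells of the gut: DEFA5, DEFA6, PLA2G2A, LYZ, REG4 and ITLN1. They are 6 of the 58735 genes in a table of RNA sequencing read counts from SW620 cells, a line derived from a metastasis of a human colorectal cancer. They were selected on their measured counts over all the groups of this data set. Their levels and changes are therefore given as a description. Their calls in the model across all genes are counted once, beside the share of all genes called, with nothing read from them, and the p-values printed are those of other genes. Of the 6 members, 3 had enough reads to enter the model fitted across all genes (DEFA5, PLA2G2A and LYZ), and 3 did not (DEFA6, REG4 and ITLN1).

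The study was set up to ask how ATF4, a transcription factor of the integrated stress response, bears on chemoresistance in colorectal cancer. A line with a hairpin RNA against ATF4 (shATF4) was set against a line with a scrambled hairpin (scramble), so that a hairpin construct was shared by all groups. Untreated cells gave 3 libraries from the shATF4 line and 3 from the scramble line. Cells given 5 µM of the chemotherapy drug 5-fluorouracil (5-FU), an antimetabolite that resembles uracil, gave 3 shATF4 and 3 scramble libraries at 24 h and 2 shATF4 and 2 scramble libraries at 48 h. The 4 libraries placed at 48 h are so titled, while their treatment tag reads 24 h. There was 1 hairpin line and 1 control line, so the hairpin's effect on ATF4 and a difference between the lines cannot be told apart. No untreated group was labelled with a time, so time in culture and 5-FU cannot be told apart.

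Paneth cells sit at the base of the crypts of the small intestine and release granules of antimicrobial proteins into the crypt. Alpha-defensins kill bacteria by disrupting their membranes, secreted phospholipase A2 breaks down bacterial phospholipids, and lysozyme cuts the peptidoglycan of the cell wall. The healthy colon holds few Paneth cells, but colorectal tumours can express their products, and Wnt signalling through TCF factors is known to drive the Paneth defensins. In bulk RNA, fewer cells of a type and less RNA per cell cannot be told apart.

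The promoter of PLA2G2A is shown because, of the members in the fit, it had the widest gap between the lines in its response to 48 h of 5-FU. The table of RefSeq promoters (GRCh38.p14) held entries for 3 members, PLA2G2A, REG4 and ITLN1. The 250 bases before 1 of the listed starts of PLA2G2A, chr1:19979660-19979909 on the minus strand, read 5′ to 3′ as follows, with each CCAAT box in capitals.
PLA2G2A: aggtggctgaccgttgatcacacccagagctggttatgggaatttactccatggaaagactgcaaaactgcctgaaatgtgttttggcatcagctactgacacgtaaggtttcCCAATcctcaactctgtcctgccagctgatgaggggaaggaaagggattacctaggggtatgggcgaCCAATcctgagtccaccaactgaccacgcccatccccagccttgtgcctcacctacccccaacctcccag

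The CCAAT boxes begin 137 and 70 bases before the start, and the motif CCAAT was chosen after this sequence had been read. The printed bases lie within the annotated gene, which spans 19975431 to 19980416. Another PLA2G2A window, chr1:19980385-19980684, reaches past the 5′ end of that gene and held 0 CCAAT boxes. The remaining PLA2G2A window, chr1:19979569-19979868, overlaps the one printed and held 2, beginning 178 and 111 bases before its start. The ITLN1 window had 1, at 158 bases before the start, and the REG4 window 0. The search covered both strands of windows from 250 bases before to 50 after each start. CCAAT was present in 34.6% of 35116 such windows. The composite element of ATF4 and C/EBP factors, written TGATGNAA, was in 3.62% of the windows and in none of the PLA2G2A, REG4 or ITLN1 windows. The TCF/LEF core CTTTGA, held by 12.9% of windows, and the TATA box TATAAA, held by 11.5%, were not in the PLA2G2A windows. The REG4 window had the TCF/LEF core 183 bases and the TATA box 31 bases before the start, and the ITLN1 window had a TATA box 123 bases before it. These matches describe letters only and say nothing about binding.

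DEFA5 encodes enteric alpha-defensin 5 (chromosome 8, 7055304 to 7056734, minus strand, GRCh38, gene model of 449 bp). DEFA6, which encodes alpha-defensin 6, a peptide known to assemble into nets that trap bacteria, lies 129.2 kb away (chromosome 8, 6924693 to 6926076, minus strand), with 12 annotated genes between them. PLA2G2A encodes the group IIA secreted phospholipase A2 (chromosome 1, 19975431 to 19980416, minus strand) and LYZ encodes lysozyme (chromosome 12, 69348341 to 69354234, plus strand). REG4, a secreted C-type lectin of enteroendocrine and goblet cells (chromosome 1, 119794018 to 119811660, minus strand), and ITLN1, the galactofuranose-binding lectin intelectin-1 (chromosome 1, 160876539 to 160885170, minus strand), complete the set. LYZ overlaps an annotated antisense gene, AC020656.1, which had 0 counts in all libraries.

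Libraries held 14571611 to 17824188 counts. ATF4 itself, the check of the knockdown, was at 91.1 to 179 CPM (read counts scaled to the size of the library) in the 8 shATF4 libraries, against 270 to 388 CPM in the 8 scramble libraries, without overlap at any time. Colon epithelial markers were present throughout, with 9 of 9 passing the filter on low counts and KRT8 averaging 5435 CPM, though their levels changed under 5-FU and differed between the lines at 48 h, as given with the other marker lists. A pair of libraries stood apart from the others of their groups. In scramble untreated replicate 2, 1.42% of counts fell in mitochondrial coding genes, against 0.753% and 0.766% in the other 2 libraries of that group. In shATF4 24 h replicate 3, 0.0726% of counts fell in RN7SL genes, against 0.0241% and 0.0251% in the other 2, and ATF4 was highest there among shATF4 24 h libraries. Log2 changes of DEFA5, PLA2G2A and LYZ that turned in sign or moved by over 1.5 times without either library are given with and without it. The labels do not state whether replicates came from separate cultures, so the p-values reflect spread among these libraries that may be only technical.

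Averaged over all libraries, DEFA5 was the most abundant member, and it stood higher in the shATF4 line in each state. By CPM, LYZ was above DEFA5 in scramble cells at 24 h and in both lines at 48 h. In untreated cells it had 640, 686 and 612 counts in shATF4 libraries, against 143, 156 and 171 counts in scramble libraries. Every shATF4 library lay far above every scramble library. The share of all genes whose groups lay apart in this way is not given here. A lack of overlap is therefore only a description, for this and the other members. On the CPM scale DEFA5 averaged 45.0 ± 2.13 in shATF4 cells and 10.6 ± 0.79 in scramble cells (SD, n = 3 each), a 4.24-fold difference and a log2 change of 2.08 ± 0.15 (SE).

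At 24 h in 5-FU, DEFA5 had 613, 660 and 1131 counts in shATF4 libraries, against 153, 142 and 145 counts in scramble libraries. The groups again did not overlap, and the high value of 1131 came from the library with the raised RN7SL share, whose part in the result was not tested. DEFA5 averaged 49.9 ± 14.3 CPM in shATF4 cells and 8.77 ± 0.172 CPM in scramble cells (SD, n = 3 each). The log2 change was 2.51 ± 0.15, and 2.26 without that library.

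At 48 h, DEFA5 had 318 and 283 counts in shATF4 libraries, against 87 and 86 counts in scramble libraries. The levels were 16.5 ± 1.41 CPM in shATF4 cells and 5.07 ± 0.0217 CPM in scramble cells (SD, n = 2 each), with a log2 change of 1.70 ± 0.20. The gap between the lines was thus 3.25-fold at 48 h and 5.7-fold at 24 h. The authors' deposited table lists log2 fold changes for DEFA5 of 2.09 in untreated cells, 2.50 at 24 h and 1.70 at 48 h.

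DEFA5 was lower at 48 h in 5-FU than in untreated cells of either line. In the shATF4 line its level was 45.0 CPM untreated, 49.9 CPM at 24 h and 16.5 CPM at 48 h. In the scramble line it was 10.6 CPM untreated, 8.77 CPM at 24 h and 5.07 CPM at 48 h. At 48 h every library lay below every untreated library of its own line, with log2 changes of -1.45 ± 0.16 in shATF4 cells and -1.06 ± 0.20 in scramble cells. At 24 h the shATF4 groups overlapped (log2 change 0.15 ± 0.13, or -0.10 without shATF4 24 h replicate 3), while the scramble groups did not (-0.27 ± 0.16). The difference of the responses, shATF4 minus scramble, was 0.43 ± 0.21 on the log2 scale at 24 h and -0.39 ± 0.26 at 48 h. Without shATF4 24 h replicate 3 the value at 24 h was 0.17, and leaving out single libraries gave 0.17 to 0.56.

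Ordered from high to low by group mean, DEFA5 ran from shATF4 at 24 h through shATF4 untreated, shATF4 at 48 h, scramble untreated and scramble at 24 h to scramble at 48 h. Only the first 2 groups of that order overlapped, and their log2 change turned in sign without shATF4 24 h replicate 3, so the lowest shATF4 group still lay above the highest scramble group. Per gene length, DEFA5 had 98.0 ± 4.5 FPKM (fragments scaled to gene length and library size, as the authors deposited them) in untreated shATF4 cells and 23.2 ± 1.7 FPKM in untreated scramble cells (SD, n = 3 each). That level exceeded 97.7% of the 17309 genes tested in untreated shATF4 cells and 86.1% of them in untreated scramble cells. The range over the 6 groups was 74.8% in scramble cells at 48 h to 98.1% in shATF4 cells at 24 h.

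**Figure D1:**
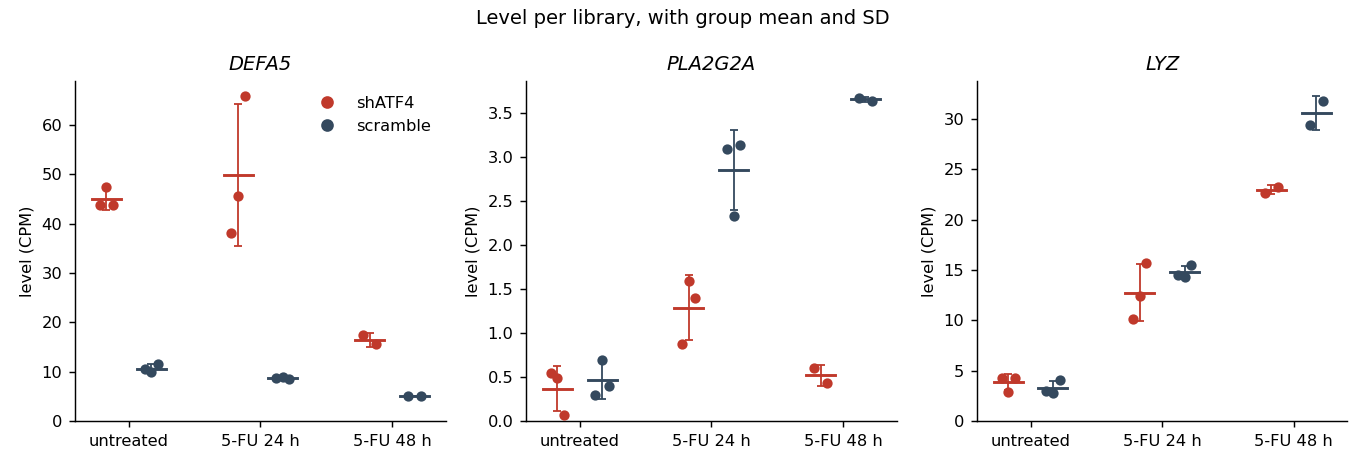
Level in CPM (vertical axis, linear from 0) of DEFA5, PLA2G2A and LYZ in each library, by treatment, with shATF4 in red on the left of scramble in dark grey. Bars give the group mean and SD. The DEFA5 groups of the lines do not overlap at any time, PLA2G2A parts between the lines under 5-FU, and LYZ is higher at each later time in both lines.

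DEFA6 was close to the detection limit, and its counts lay on the same side as those of DEFA5. It had 4, 5 and 6 counts in untreated shATF4 libraries, against 3, 1 and 3 counts in untreated scramble libraries. At 24 h it had 5, 5 and 10 counts in shATF4 libraries, against 1, 3 and 3 counts in scramble libraries. At 48 h it had 13 and 8 counts in shATF4 libraries, against 0 and 1 counts in scramble libraries. In each state the lowest shATF4 library was above the highest scramble library, by 1 count in untreated cells.

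The ratio of summed DEFA6 counts was scaled by total counts, not by the adjusted library sizes used for CPM. It was 2.27 in untreated cells (15 against 7 counts, exact 95% interval 0.871 to 6.58). It was 2.86 at 24 h (20 against 7 counts, 1.16 to 8.01) and 19.6 at 48 h (21 against 1 counts, 3.16 to 812). These intervals cover counting error only, since counts were summed over libraries and the spread between replicates was left out. Reads were also not tagged with molecular identifiers. At 48 h against untreated the DEFA6 ratio was 2.06 in shATF4 cells (1.01 to 4.29) and 0.238 in scramble cells (0.00528 to 1.85), so the lower DEFA5 level at 48 h in shATF4 cells was not matched by fewer DEFA6 counts. In CPM, DEFA6 averaged 0.575 at 48 h and 0.349 untreated in shATF4 cells, a smaller ratio. No interval was computed on that scale, so no rise of DEFA6 is read from these values. Per gene length DEFA6 was far below DEFA5, at 0.729 ± 0.163 FPKM in untreated shATF4 cells and 0.338 ± 0.178 FPKM in untreated scramble cells (SD, n = 3 each).

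The other alpha-defensins, DEFA1, DEFA1B, DEFA3 and DEFA4 of neutrophils, had 0 counts in all 16 libraries. DEFA1, DEFA1B and DEFA3 are near-identical, and reads of such copies can be lost in counting. The nearest tested gene on the DEFA6 side of DEFA5 was AGPAT5, which makes phosphatidic acid, 296 kb away. Its log2 change in untreated shATF4 cells against scramble cells was -0.01 ± 0.08. On the other side the nearest tested gene was the pseudogene FAM86B3P, 1172 kb away, at 0.39 ± 0.16.

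PLA2G2A showed the opposite order of the lines, and only under 5-FU did the groups separate. In untreated cells it had 8, 7 and 1 counts in shATF4 libraries, against 4, 11 and 6 counts in scramble libraries. The groups overlapped, at 0.367 ± 0.258 CPM in shATF4 cells and 0.464 ± 0.209 CPM in scramble cells (SD, n = 3 each). The log2 change was -0.34 ± 0.53, and it was 0.08 without scramble untreated replicate 2 and 0.13 without shATF4 untreated replicate 3, so no direction can be read.

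At 24 h PLA2G2A had 14, 23 and 24 counts in shATF4 libraries, against 54, 37 and 53 counts in scramble libraries. The groups were apart, at 1.29 ± 0.371 CPM in shATF4 cells and 2.86 ± 0.46 CPM in scramble cells (SD, n = 3 each), with a log2 change of -1.15 ± 0.32. At 48 h it had 11 and 8 counts in shATF4 libraries, against 63 and 62 counts in scramble libraries. The levels were 0.52 ± 0.118 CPM in shATF4 cells and 3.66 ± 0.0272 CPM in scramble cells (SD, n = 2 each), with a log2 change of -2.80 ± 0.43. The ratio of summed counts, 19 against 125, was 0.142 with an exact 95% interval of 0.0828 to 0.231 for counting error.

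Within lines, the group means of PLA2G2A took different courses, given here as a description and resting on few untreated counts. In the scramble line it was at 0.464 CPM untreated, 2.86 CPM at 24 h and 3.66 CPM at 48 h, each 5-FU library above each untreated library. The log2 changes were 2.58 ± 0.38 at 24 h and 2.94 ± 0.40 at 48 h, and 3.01 and 3.36 without scramble untreated replicate 2. In the shATF4 line it was at 0.367 CPM untreated, 1.29 CPM at 24 h and 0.52 CPM at 48 h. There the 24 h libraries lay above the untreated ones (log2 change 1.77 ± 0.44) and the 48 h libraries among them (0.48 ± 0.55). The value at 48 h was 0.01 without shATF4 untreated replicate 3, which had the single count of 1, and 0.87 without shATF4 untreated replicate 1.

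The difference of the PLA2G2A responses, shATF4 minus scramble, was -0.81 ± 0.64 on the log2 scale at 24 h and -2.46 ± 0.71 at 48 h. When single libraries were left out, the value ranged from -1.28 to -0.42 at 24 h and from -2.92 to -2.06 at 48 h. The 24 h value was -1.24 without scramble untreated replicate 2, -1.28 without shATF4 untreated replicate 3 and -0.42 without shATF4 untreated replicate 1. Ordered from high to low, the PLA2G2A groups ran from scramble at 48 h through scramble at 24 h and shATF4 at 24 h to shATF4 at 48 h, scramble untreated and shATF4 untreated. The last 3 groups overlapped their neighbours and the first 3 did not. Per gene length PLA2G2A was a low-level gene, from 0.213 FPKM in untreated shATF4 cells to 2.17 FPKM in scramble cells at 48 h, above 13.1% and 38.8% of the genes tested in those groups.

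The secreted phospholipase A2 family gave little more. Of 10 relatives, 4 were tested, and PLA2G2C had 0 counts in all libraries. PLA2G12A, an atypical member of the family, was the most abundant at 23.8 CPM and was higher in shATF4 cells at 48 h (log2 change 0.43 ± 0.13, adjusted p = 0.0415 by edgeR's quasi-likelihood test). That call was lost in 7 of 23 alternative settings, among them leaving out any of the 48 h libraries. PLA2G2E, which lies 51.8 kb from PLA2G2A, averaged 0.689 CPM and was lower in shATF4 than scramble cells at 24 h (log2 change -1.10 ± 0.38, adjusted p = 0.0463), a call lost in 13 of 23 alternatives. Its change was -1.66 ± 0.54 in untreated cells (adjusted p = 0.121) and -0.09 ± 0.60 in cells treated for 48 h (adjusted p = 0.951). PLA2G2F, 159 kb on the other side, rose in scramble cells at 48 h (1.67 ± 0.56, adjusted p = 0.0138). That call was lost without scramble untreated replicate 3 or either scramble 48 h library. PLA2G2F missed the threshold in shATF4 cells at 48 h (1.32 ± 0.59, adjusted p = 0.0588).

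LYZ differed little between the lines and was many times higher under 5-FU in both. In the shATF4 line it had 63, 42 and 60 counts untreated, 162, 179 and 269 counts at 24 h, and 414 and 426 counts at 48 h. In the scramble line it had 41, 43 and 60 counts untreated, 252, 228 and 261 counts at 24 h, and 504 and 541 counts at 48 h. Each time point lay wholly above the one before it in both lines.

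The LYZ level in shATF4 cells was 3.83 ± 0.805 CPM untreated and 12.7 ± 2.79 CPM at 24 h (SD, n = 3 each), and 23.0 ± 0.39 CPM at 48 h (n = 2). In scramble cells it was 3.25 ± 0.681 CPM untreated and 14.8 ± 0.607 CPM at 24 h (SD, n = 3 each), and 30.6 ± 1.65 CPM at 48 h (n = 2). The log2 changes at 24 h were 1.73 ± 0.17 in shATF4 cells and 2.18 ± 0.17 in scramble cells, and at 48 h they were 2.58 ± 0.18 in shATF4 cells and 3.23 ± 0.18 in scramble cells. The difference of the responses, shATF4 minus scramble, was -0.45 ± 0.25 at 24 h and -0.65 ± 0.26 at 48 h.

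Between the lines, the LYZ groups overlapped in untreated cells (log2 change 0.24 ± 0.21) and at 24 h (-0.21 ± 0.14). The size of either gap depended on single libraries, with 0.12 to 0.42 in untreated cells and -0.40 to -0.09 at 24 h when 1 was left out. Leaving out shATF4 replicate 1, 2 or 3 gave 0.14, 0.40 or 0.15 in untreated cells, and leaving out scramble replicate 2 or 3 gave 0.12 or 0.42. At 24 h it was -0.40 without shATF4 24 h replicate 3, which had the 269 counts, and -0.09 without shATF4 24 h replicate 1. At 48 h both shATF4 libraries lay below both scramble libraries (-0.41 ± 0.16). By rank, LYZ exceeded 77.7% of the genes tested in shATF4 cells at 48 h and 83.1% in scramble cells at 48 h, against 42.0% in untreated shATF4 cells and 39.7% in untreated scramble cells. Of 9 relatives of LYZ only LYG1 and LYG2, lysozymes of the goose type, were tested. LYG2 was lower in shATF4 cells at 48 h than untreated (log2 change -2.68 ± 0.80, adjusted p = 0.00727) at an average of 0.6 CPM, a call lost without shATF4 48 h replicate 2. The nearest tested neighbour of LYZ, the chromatin reader YEATS4 at 5.47 kb, had log2 changes of 0.01 ± 0.11 in shATF4 cells and -0.08 ± 0.11 in scramble cells at 48 h.

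**Figure D2:**
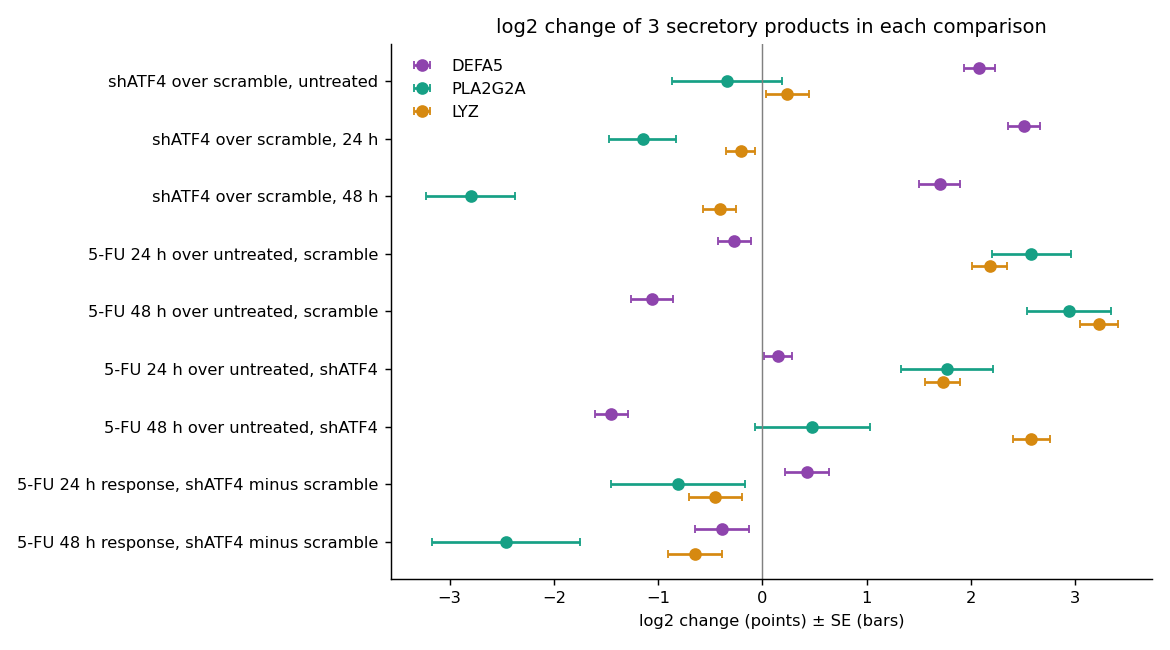
The log2 change (horizontal axis; points, with SE as bars) of DEFA5, PLA2G2A and LYZ in each of the 9 comparisons. DEFA5 lies right of 0 in the 3 comparisons of the lines, PLA2G2A left of 0 at 24 h and 48 h, and LYZ right of 0 in the 4 comparisons of 5-FU with untreated cells.

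REG4 and ITLN1 were at the floor of detection. REG4 had 5 counts in all: 2 in shATF4 24 h replicate 1, 2 in shATF4 48 h replicate 1 and 1 in scramble 48 h replicate 1. ITLN1 had 1 count, in shATF4 48 h replicate 1. A count of 0 over all 16 libraries would allow up to 0.0117 CPM (3 counts), so REG4 at 0.0196 CPM was barely above that limit and ITLN1 at 0.00391 CPM was below it. Of their relatives, REG1A, REG1B, REG3A and REG3G, antimicrobial lectins and regenerating proteins of the gut, had 0 counts in all libraries.

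**Figure D3:**
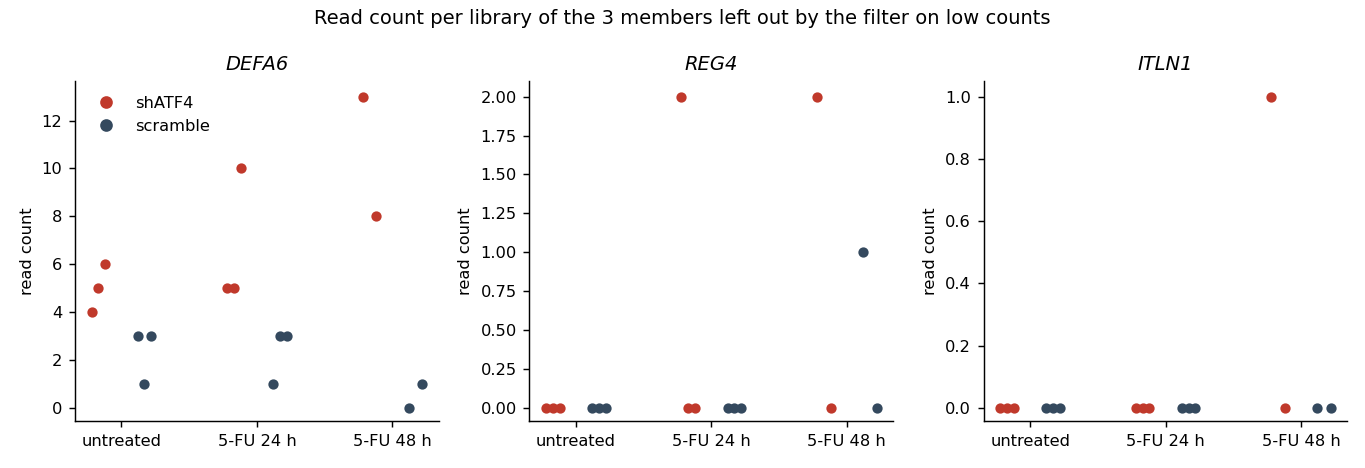
Read counts per library (vertical axis) of DEFA6, REG4 and ITLN1, by treatment, with shATF4 in red on the left of scramble in dark grey. The highest DEFA6 count is 13, in a shATF4 48 h library, and REG4 and ITLN1 do not exceed 2 and 1 counts.

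Counted by the fit across all genes (adjusted p under 0.05), 1 of the 3 tested members was called between the lines in untreated cells, where 2.92% of all genes were called. Between the lines 2 members were called at 24 h (20.4% of all genes) and 2 at 48 h (9.45%). For 5-FU against untreated in shATF4 cells, 2 members were called at 24 h (44.4% of all genes) and 2 at 48 h (58.3%). In scramble cells, 2 members were called at 24 h (44.0%) and 3 at 48 h (60.7%). No member was called for a difference of the responses at 24 h (2.13% of all genes) or 48 h (2.74%), by edgeR's quasi-likelihood test. At an unadjusted p under 0.05 there were 0 members at 24 h and 2 at 48 h, and DESeq2 called 0 and 1. The members were selected on these counts, so nothing is read from their calls. The comparisons of a line at 24 h and 48 h share its untreated libraries.

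Over the 16 libraries, the log2(CPM + 1) profile of DEFA5 had a Pearson r of -0.54 with that of PLA2G2A and -0.352 with that of LYZ, while PLA2G2A and LYZ had an r of 0.693. These values describe 16 libraries in 6 groups, which are not independent points. Among 11172 genes averaging at least 5 CPM, the most like DEFA5 were HSD17B10 (r = 0.977), a mitochondrial dehydrogenase, PROM1 (0.963), which encodes the stem cell antigen CD133, LMLN (0.938), M6PR (0.93) and RGS16 (0.928). The most like PLA2G2A were SLC14A1 (0.938), a urea transporter, KRT86 (0.935), LAPTM5 (0.932), MET (0.929), the receptor of hepatocyte growth factor, and NRP1 (0.917). The most like LYZ were EDAR (0.988), MCAM (0.988), MUC13 (0.987), a transmembrane mucin, ZNF503-AS1 (0.985) and BCL2L15 (0.984). By Spearman's rank correlation 3 of the 5 genes were kept for DEFA5, 1 of 5 for PLA2G2A and 0 of 5 for LYZ. ZNF503-AS1 is an antisense gene whose counts may hold reads of overlapping genes.

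**Figure D4:**
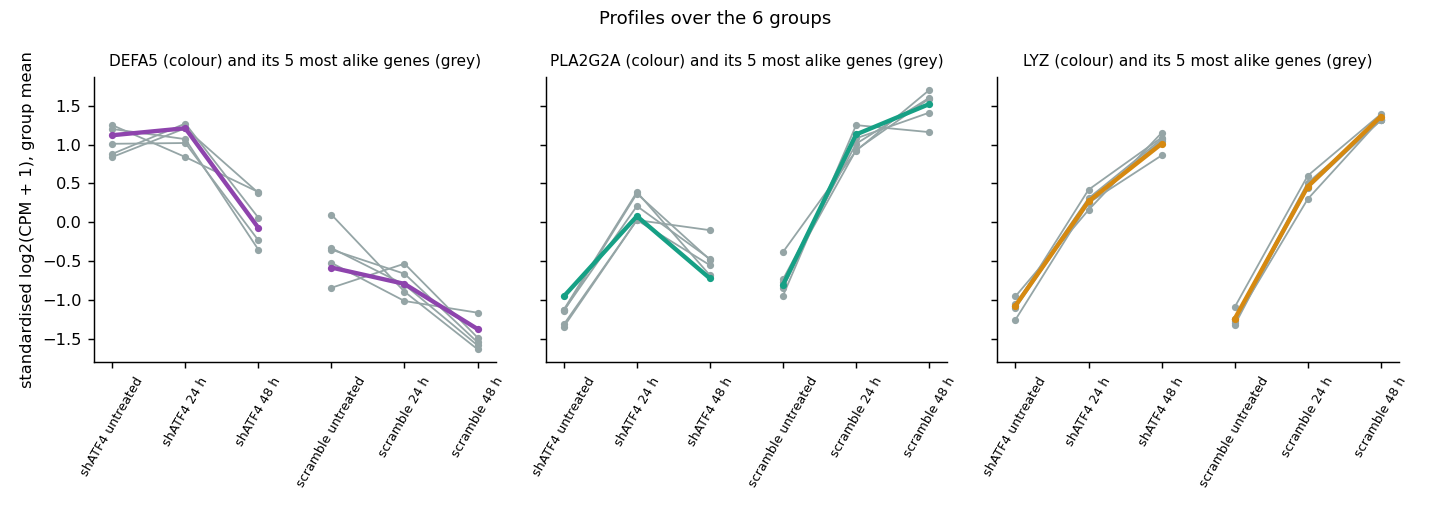
Group means of log2(CPM + 1), standardised over the 16 libraries (vertical axis, SD units), for each member in colour and the 5 genes most like it in grey, over the 6 groups with shATF4 on the left. DEFA5 and its likest genes are high in shATF4 cells untreated and at 24 h, and the PLA2G2A profiles peak in scramble cells under 5-FU.

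Other genes of the secretory lineages were read from lists that leave out the members, and these carry tests. The lists were chosen with earlier results of these data known. The share of a list called, set beside that of all genes, is therefore only a description. Of 16 further Paneth cell markers 13 were tested. Between the lines in untreated cells 3 were higher and 0 lower (median log2 change -0.03, against -0.01 for all genes). Called were thus 23.1% of the 13, against 2.92% of all genes. SERPINA1, a protease inhibitor, was at 45.7 ± 1.98 CPM in shATF4 cells and 28.3 ± 2.47 CPM in scramble cells (SD, n = 3 each). Its log2 change was 0.69 ± 0.09, with an adjusted p = 0.000102. MMP7, the matrix protease that activates Paneth defensins in mice, was at 7.69 ± 1.53 CPM in shATF4 cells and 4.02 ± 0.71 CPM in scramble cells (0.94 ± 0.17, adjusted p = 0.00238). NOD2, a sensor of bacterial peptidoglycan, was also higher (1.48 ± 0.39, adjusted p = 0.0434), a call lost in 11 of 23 alternatives. SERPINA1 and MMP7 kept their calls in all 23.

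At 24 h 3 Paneth markers were higher and 1 lower in shATF4 than scramble cells, with SERPINA1 at 0.68 ± 0.09 (adjusted p = 2.02e-05), MMP7 at 0.81 ± 0.13 (adjusted p = 0.000174) and the ephrin receptor EPHB3 at 0.38 ± 0.11 (adjusted p = 0.016, lost when scramble 24 h replicate 1 or 3 or shATF4 24 h replicate 1 or 2 was left out). At 48 h 1 was higher, SERPINA1 (0.53 ± 0.10, adjusted p = 0.00182), and 2 lower, the retinol carrier RBP4 (-0.98 ± 0.27, adjusted p = 0.0267) and the Wnt receptor FZD5 (-0.37 ± 0.12, adjusted p = 0.0482). RBP4 was lost when any 48 h library was left out and FZD5 in 12 of 23 alternatives. Called between the lines were 30.8% of the tested Paneth markers at 24 h and 23.1% at 48 h, against 20.4% and 9.45% of all genes. Under 5-FU at 48 h the Paneth list went both ways. In shATF4 cells 4 of 13 rose and 6 fell (median -0.57), with 76.9% called against 58.3% of all genes. In scramble cells 5 rose and 6 fell (median -0.04), with 84.6% called against 60.7%. The median of all genes was 0.03 in either line. SERPINA1 rose by 1.95 ± 0.09 in shATF4 cells (adjusted p = 6.66e-13) and by 2.12 ± 0.10 in scramble cells (adjusted p = 2.03e-13), while the ephrin receptor EPHB2 fell by 1.35 in shATF4 cells and by 1.42 in scramble cells, and CD24 fell by 1.09 in shATF4 cells and by 1.16 in scramble cells. At 24 h MMP7 rose by 1.86 ± 0.14 in shATF4 cells and by 1.98 ± 0.16 in scramble cells.

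Most goblet cell markers rose under 5-FU. Of the 11 tested, 10 rose and 1 fell at 24 h in shATF4 cells (median log2 change 1.37), and 9 rose and 1 fell in scramble cells (median 2.22). Called at 24 h were thus 100% in shATF4 cells and 90.9% in scramble cells, against 44.4% and 44.0% of all genes. At 48 h 10 rose and 0 fell in shATF4 cells (median 1.74), and 10 rose and 1 fell in scramble cells (median 2.93). At 48 h 10 of the 11 were thus called in shATF4 cells and 11 of 11 in scramble cells, where 58.3% and 60.7% of all genes were. AGR2, a disulfide isomerase needed for mucin folding, rose by 5.39 ± 0.42 at 48 h in shATF4 cells (adjusted p = 7.85e-10) and by 5.52 ± 0.35 in scramble cells (adjusted p = 3.17e-11). CREB3L1 rose by 4.96 ± 0.42 in shATF4 cells and 4.98 ± 0.37 in scramble cells. TFF2, a trefoil peptide, rose by 1.74 ± 0.16 in shATF4 cells and 2.93 ± 0.15 in scramble cells at 48 h, and this difference of -1.19 ± 0.23 passed the test (adjusted p = 0.00697) here and in all 23 alternatives.

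Between the lines, no goblet marker was called in untreated cells by edgeR's quasi-likelihood test (0 of 11, with 0 at an unadjusted p under 0.05 and 0 by DESeq2). At 24 h 2 were higher and 4 lower in shATF4 cells, with CREB3L1 at -1.64 ± 0.31 (adjusted p = 0.000877), FCGBP at -1.06 ± 0.20 (adjusted p = 0.00108) and GALNT12 at -0.59 ± 0.13 (adjusted p = 0.00316). At 48 h 1 was higher and 3 lower, with TFF2 at -0.94 ± 0.15 (adjusted p = 0.000268) and SPDEF, a transcription factor of goblet and Paneth cells, at -1.83 ± 0.37 (adjusted p = 0.00279, lost without shATF4 48 h replicate 1). GALNT12 was higher in shATF4 cells at 48 h (0.68 ± 0.16, adjusted p = 0.00772, lost without scramble 48 h replicate 1 or shATF4 48 h replicate 2). Called between the lines were 54.5% of the tested goblet markers at 24 h and 36.4% at 48 h, against 20.4% and 9.45% of all genes.

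Of 24 antimicrobial and mucosal defence genes 8 were tested, and at 48 h 4 rose and 0 fell in shATF4 cells and 5 rose and 0 fell in scramble cells. These 4 of 8 and 5 of 8 are near the 58.3% and 60.7% of all genes called in shATF4 and scramble cells, with median log2 changes of 1.86 and 3.16, against 0.03 for all genes in either line. SLPI, a secreted protease inhibitor that also kills bacteria, rose by 5.60 ± 0.39 in shATF4 cells (adjusted p = 1.34e-10) and by 4.15 ± 0.30 in scramble cells (adjusted p = 2.35e-10), and WFDC2, a related inhibitor, rose by 2.33 ± 0.19 in shATF4 cells and by 2.17 ± 0.18 in scramble cells. Between the lines 0 of the 8 were called in any state by edgeR's quasi-likelihood test, with 3, 2 and 2 at an unadjusted p under 0.05 and 1, 1 and 0 by DESeq2 in untreated cells, at 24 h and at 48 h.

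Of 5 enteroendocrine markers tested, 2 were called at 48 h in shATF4 cells and 1 in scramble cells, shares below those of all genes (58.3% and 60.7%). The granin CHGB was higher at 24 h and not at 48 h. At 24 h it rose by 0.73 ± 0.09 in shATF4 cells (adjusted p = 2.53e-06) and by 0.54 ± 0.09 in scramble cells (adjusted p = 6.83e-05). At 48 h its log2 change was -0.19 ± 0.11 in shATF4 cells (adjusted p = 0.142) and -0.38 ± 0.11 in scramble cells (adjusted p = 0.00423, lost under upper-quartile scaling). The 2 calls at 48 h in shATF4 cells, named after their values were seen, were CHGA (2.33 ± 0.71, adjusted p = 0.00816), another granin, and the transcription factor INSM1 (-3.98 ± 0.91, adjusted p = 0.000811), which averaged 0.272 and 0.299 CPM.

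Of 20 regulators of the secretory lineages 16 were tested, and ATOH1, the master factor of secretory fate, had 0 counts in all libraries. JAG1, a Notch ligand, was lower in shATF4 than scramble cells in each state: by -0.78 ± 0.06 untreated (adjusted p = 5.88e-08), by -0.41 ± 0.06 after 24 h (adjusted p = 5.02e-05) and by -1.08 ± 0.07 after 48 h (adjusted p = 6.98e-09). LEF1, a TCF family factor of Wnt signalling, was higher in untreated shATF4 cells (1.32 ± 0.24, adjusted p = 0.00261) and NOTCH2 lower (-0.51 ± 0.12, adjusted p = 0.0224, lost in 5 of 23 alternatives). At 24 h HNF4A (0.27 ± 0.06, adjusted p = 0.00497) and SOX4 (0.26 ± 0.06, adjusted p = 0.00787) were slightly higher, calls that 1 alternative each ended. At 48 h the intestinal factor CDX2 was higher (0.98 ± 0.14, adjusted p = 0.00015), and so was LEF1 (0.93 ± 0.21, adjusted p = 0.00719, lost without scramble 48 h replicate 1 or shATF4 48 h replicate 2). Under 5-FU at 48 h NOTCH2 rose by 2.06 ± 0.12 in shATF4 cells and by 1.59 ± 0.12 in scramble cells, and SOX4 fell by 1.04 in shATF4 cells and by 0.97 in scramble cells. In all 9 lists together, 6 of 59 tested genes were called between the lines in untreated cells, 16 at 24 h and 11 at 48 h. These were 10.2%, 27.1% and 18.6% of the 59, against 2.92%, 20.4% and 9.45% of all genes.

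**Figure D5:**
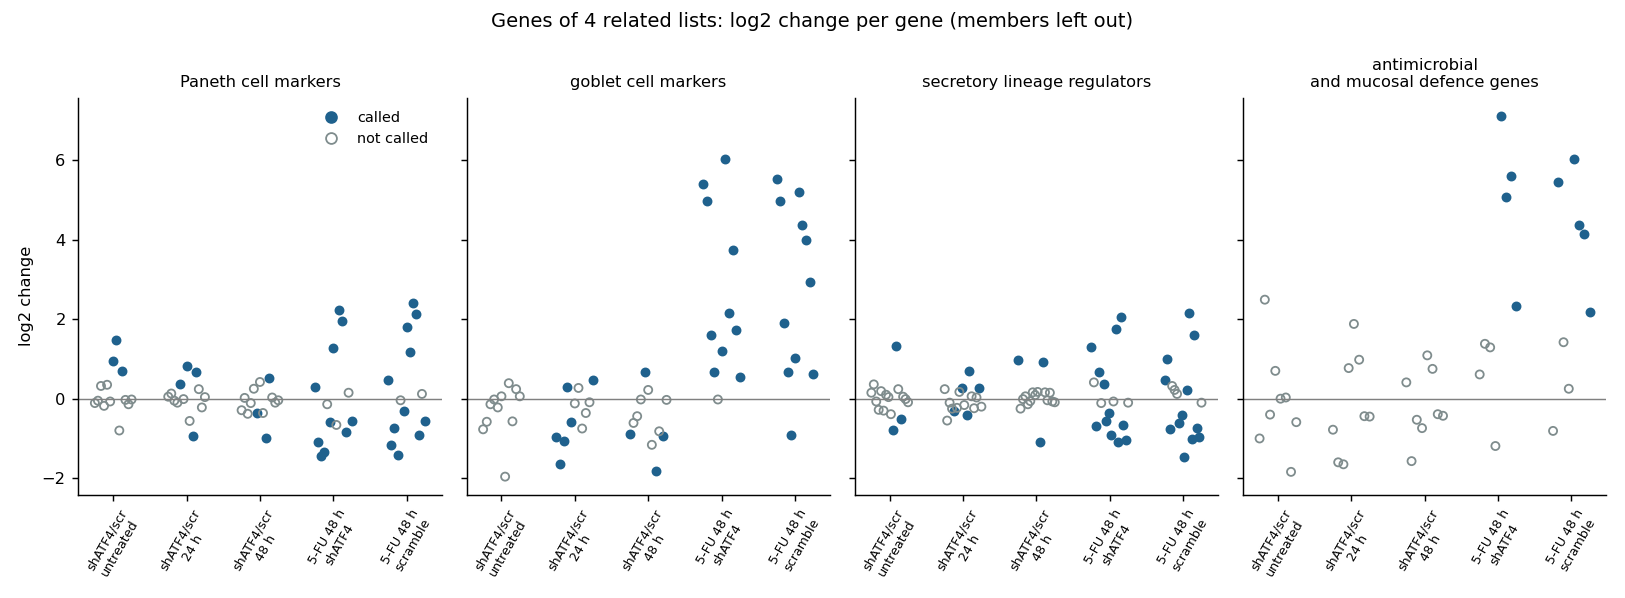
The log2 change (vertical axis) of each tested gene in 4 of the lists, members left out, for shATF4 over scramble (scr) in 3 states and for 5-FU at 48 h over untreated in each line. Filled points are called at an adjusted p under 0.05, and goblet markers at 48 h lie mostly above 0 in both lines.

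Marker lists of other cell types and of colon epithelium were read beside these results. Of 13 markers of other cell types 6 were tested, and at 48 h 4 of the 6 rose in shATF4 cells (66.7%, against 58.3% of all genes called) and 5 in scramble cells (83.3%, against 60.7%). At that time LYZ was higher than untreated in both lines and PLA2G2A in scramble cells, while PLA2G2A overlapped its untreated level in shATF4 cells. The 13 markers of other cell types summed to 27.8 to 31.0 CPM at 48 h in shATF4 cells and 38.4 to 39.3 CPM in scramble cells. The summed level of these 13 was 14.5 to 15.4 CPM in untreated shATF4 cells and 16.5 to 20.4 CPM in untreated scramble cells. At 24 h it was 28.5 to 37.9 CPM in shATF4 cells and 38.8 to 42.9 CPM in scramble cells. Of the 13, ELANE and COL3A1 were at 0 in every library, and the leukocyte marker PTPRC had 0 to 2 counts in any group. Of the 6 tested, 0 fell at 48 h in either line, and CD14 was called in neither. COL1A1 averaged 14.8 CPM. At 48 h PDGFRB rose by 2.30 ± 0.23 in shATF4 cells and by 2.41 ± 0.21 in scramble cells. VWF rose by 1.14 ± 0.28 in shATF4 cells and by 1.96 ± 0.26 in scramble cells. The goblet list, without LYZ, summed to 184 to 196 CPM at 48 h in shATF4 cells and 209 to 218 CPM in scramble cells, against 104 to 114 CPM in untreated shATF4 cells and 103 to 115 CPM in untreated scramble cells. The 9 epithelial markers summed to 6584 to 7051 CPM at 48 h in shATF4 cells and 7379 to 7556 CPM in scramble cells, against 11260 to 11823 CPM in untreated shATF4 cells and 11174 to 12542 CPM in untreated scramble cells. At 48 h 2 rose and 5 fell in shATF4 cells (77.8% called, against 58.3% of all genes). In scramble cells 2 rose and 6 fell (88.9%, against 60.7%). KRT8, the most abundant of the list, fell by 0.81 in shATF4 cells (adjusted p = 1.3e-08) and by 0.80 in scramble cells (adjusted p = 1.41e-08). Between the lines 0 of the 9 were called in untreated cells by edgeR's quasi-likelihood test (0 at an unadjusted p under 0.05 and 0 by DESeq2), 3 at 24 h (33.3%, against 20.4% of all genes) and 5 at 48 h (55.6%, against 9.45%). The calls at 48 h, named after their values were seen, were VIL1, CDX2 and LGR5, higher in shATF4 cells, and KRT19 and CDH1, lower in them. The part of these marker lists in the results was not tested.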

How the data were processed

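Polyadenylated RNA was sequenced, and the authors counted whole reads per gene with featureCounts 1.5.0-p3 on GRCh38, per the submitters' processing notes. The deposited counts are not normalized. FPKM values per library are the authors', per the file headers, and were used only to set levels of different genes side by side. The authors' deposited table also gives log2 fold changes and p-values, of which the log2 fold changes of DEFA5 are quoted. Not given in the sources used here are aligner, annotation release and strandedness of the counting.

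The filter on low counts was filterByExpr (edgeR 4.0.16, R 4.3.3). It kept 17309 genes with 99.9% of counts. Library sizes were scaled by TMM, and CPM values use the scaled sizes. Ratios of summed counts, and the pooled levels of REG4 and ITLN1 over all libraries with their limit, use unscaled total counts. A quasi-likelihood model with 6 group means was fitted to all 16 libraries (10 residual degrees of freedom, common biological coefficient of variation 0.0847). Adjusted p-values are those of edgeR's quasi-likelihood test after Benjamini-Hochberg adjustment over all 17309 genes, called under 0.05, and standard errors come from its F statistic. The fit was tested on simulated data. Tables were made with pandas 2.3.3 and SciPy 1.17.1 under Python 3.11.15. Alternatives were DESeq2 1.42.0, other scalings, no filter, only the groups compared, a replicate block, and leaving out libraries.

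The members and the gene lists were chosen with earlier results of these data known. Named were all members, ATF4 in each library, up to 3 called genes averaging at least 1 CPM per list and comparison (for 5-FU against untreated only some of these are printed), the 5 genes most like each member, and relatives of the members. The lists were Paneth, goblet and enteroendocrine markers, secretory regulators, antimicrobial genes, 4 families, epithelial markers and markers of other cell types.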

Additional observations from a re-analysis of the deposited data

Results flagged for a closer look

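No member met a rule for a closer look. Among related genes, 5 had responses to 5-FU that differed between the lines by edgeR's quasi-likelihood test of the difference (shATF4 minus scramble, log2). JAG1 differed by 0.37 at 24 h, rising by 1.16 in shATF4 and 0.79 in scramble cells (adjusted p = 0.0237, lost in 7 of 23 alternatives). At 48 h TFF2 differed by -1.19, DLL4 by -0.70, GALNT12 by 0.89 and CDX2 by 0.83, with adjusted p of 0.00697, 0.0214, 0.0173 and 0.0223. Of the 23 alternatives, 5 ended the call of DLL4, 3 that of GALNT12, 6 that of CDX2 and none that of TFF2. At 48 h every library of JAG1 and of NOD2 lay below the untreated ones in shATF4 cells and above them in scramble cells, and those differences, -0.30 for JAG1 (adjusted p = 0.0831) and -1.83 for NOD2 (adjusted p = 0.10), missed the threshold.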

How the results depend on the processing

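Over the settings tried, 770 values stayed the same. For a member's log2 change that meant a shift below the SD between replicates. For a count of called related genes it meant a change of at most 1.5 times. For a list of most alike genes it meant that at least 4 of the 5 were kept. Of the rest, 35 log2 changes or lists moved. Counts of called related genes were higher by over 1.5 times in 10 cases and lower in 17. DEFA5 kept its sign between the lines in all 23 alternatives, with leave-one-out log2 changes of 2.03 to 2.14 untreated, 2.26 to 2.65 at 24 h and 1.62 to 1.79 at 48 h. Under 5-FU at 48 h they were -1.55 to -1.38 in shATF4 cells and -1.11 to -1.0 in scramble cells. Upper-quartile scaling, which raised the median of all genes at 48 h by 0.13 in shATF4 and 0.14 in scramble cells, gave DEFA5 -1.32 in shATF4 and -0.92 in scramble cells at 48 h, and -0.20 in scramble cells at 24 h. PLA2G2A rests on few reads. Between the lines its leave-one-out range was -0.73 to 0.13 untreated, -1.32 to -0.96 at 24 h and -3.04 to -2.58 at 48 h. Under 5-FU it was 1.30 to 2.16 and 0.01 to 0.87 in shATF4 cells at 24 h and 48 h, and 2.36 to 3.01 and 2.71 to 3.36 in scramble cells. Without the pair of libraries that stood apart it was 0.08 between untreated lines, 3.01 and 3.36 in scramble cells, and -1.31 and -2.88 for the differences of responses. LYZ ranged from 0.12 to 0.42 untreated, -0.40 to -0.09 at 24 h and -0.46 to -0.35 at 48 h between the lines, and from 2.06 to 2.37 in scramble cells at 24 h. The 24 h differences of responses ranged from 0.17 to 0.56 for DEFA5, -1.28 to -0.42 for PLA2G2A and -0.63 to -0.33 for LYZ. Counts of called related genes were 10 without that pair in untreated cells (6 as reported), and 19 at 48 h when only the groups compared were fitted (11). For the differences of responses they were 2 with no filter, 3 by DESeq2 and 5 without the pair at 24 h (1), and 7 without the pair at 48 h (4). Leaving out single libraries gave 4 to 10 untreated, 10 to 18 at 24 h and 5 to 14 at 48 h between the lines, and 0 to 4 and 1 to 5 for the differences. The cause of these changes was not tested.

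Replicate numbers were not taken to pair the libraries, since not every same-numbered pair had a correlation of deviations over 0.1. That rule is strict, and whether same-numbered libraries share a batch was not tested. Of 36 such pairs 19 did (-0.461 to 0.485, median 0.166), a larger share than the 17 of 70 other-numbered pairs (median -0.0574). A replicate block moved DEFA5 in scramble cells at 48 h to -0.99 and the count for the difference of responses at 24 h to 2.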
